A study of Mus musculus with 12 samples.

Results

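The genes of heterochromatin and H3K9 methylation were followed in hematopoietic stem cells (HSCs) after deletion of *Ythdc1*, which encodes a nuclear reader of the RNA modification m6A. The set holds 10 genes, *Setdb1*, *Trim28*, *Atf7ip*, *Suv39h1*, *Suv39h2*, *Ehmt1*, *Ehmt2*, *Cbx1*, *Cbx3* and *Cbx5*, which were taken as a list of symbols and found by their gene identifiers among the 55335 genes of the count table. All 10 were found, and all 10 passed the filter on low counts together with the rest of the 18234 genes tested. Polyadenylated RNA was sequenced from HSCs sorted from the bone marrow of mice of the strain given as C57B6. *Ythdc1Δ/Δ* HSCs came from *Ythdc1fl/fl* mice and *Ythdc1+/+* HSCs from mice with intact *Ythdc1* alleles, and the mice of both genotypes carried the Mx1-Cre transgene and received pIpC. Donors were 8 weeks of age according to the methods of the study. Mx1-Cre is driven by an interferon-responsive promoter, so that the injected double-stranded RNA analogue pIpC switches it on, and it acts in cells other than HSCs too. The 6 libraries of each genotype are titled in pairs, as KO176, KO177 and KO209 in *Ythdc1Δ/Δ* HSCs and as WT178, WT180 and WT207 in *Ythdc1+/+* HSCs. Counts of both libraries of a title were added up, so that 3 samples stand against 3. No label tells if a title stands for a mouse or a pool of mice, and the p-values therefore reflect only how these samples scatter, part of which may be technical.

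Methylation of lysine 9 of histone H3 (H3K9) marks silenced chromatin. SETDB1 is brought to its targets by TRIM28, a corepressor of zinc finger proteins, and is held in the nucleus and stabilised by ATF7IP. SUV39H1 and SUV39H2 trimethylate H3K9 in pericentromeric heterochromatin, EHMT1 (GLP) and EHMT2 (G9a) act as a heterodimer that mostly mono- and dimethylates H3K9 in euchromatin, and the HP1 proteins CBX5 (HP1α), CBX1 (HP1β) and CBX3 (HP1γ) bind the methylated lysine. SETDB1 and TRIM28 are known to silence endogenous retroviruses, and in mouse HSCs SETDB1 is needed for the cells to persist.

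None of the 10 genes passed the threshold between *Ythdc1Δ/Δ* and *Ythdc1+/+* HSCs (0 of 10 with an adjusted p under 0.05, edgeR quasi-likelihood test with Benjamini-Hochberg adjustment over all genes tested). DESeq2 also called 0 of 10, with an unadjusted p under 0.05 in 2. Of all genes tested, 25 passed the edgeR threshold, or 0.137%. *Suv39h2*, *Cbx3* and *Cbx5* had the smallest p-values of the set, with levels 1.22-fold, 1.25-fold and 1.21-fold those of *Ythdc1+/+* HSCs. These 3 genes had an unadjusted p under 0.05, and in these 3 genes the *Ythdc1Δ/Δ* samples all lay above the *Ythdc1+/+* samples. Over all genes tested, 4.28% had an unadjusted p under 0.05 with a higher level in *Ythdc1Δ/Δ*, and 7.75% had all *Ythdc1Δ/Δ* samples above all *Ythdc1+/+* samples. In the other direction the counts were 0 of 10 by either rule, against 5.2% of all genes by the unadjusted p and 8.59% by the samples. The 95% intervals of the fold changes ran from 0.759 to 1.6 over the 10 genes, so that a 2-fold change in either direction lay outside the interval of each of them. Of the 10 intervals, 9 lay within 1.5-fold (the exception was *Suv39h1*), as did 45.9% of the intervals of all genes tested. Intervals narrow as counts rise, and the 10 genes stood at percentiles 54.9 to 98 of all genes tested by CPM in *Ythdc1+/+*, so these shares are not compared at like counts.

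**Figure D1:**
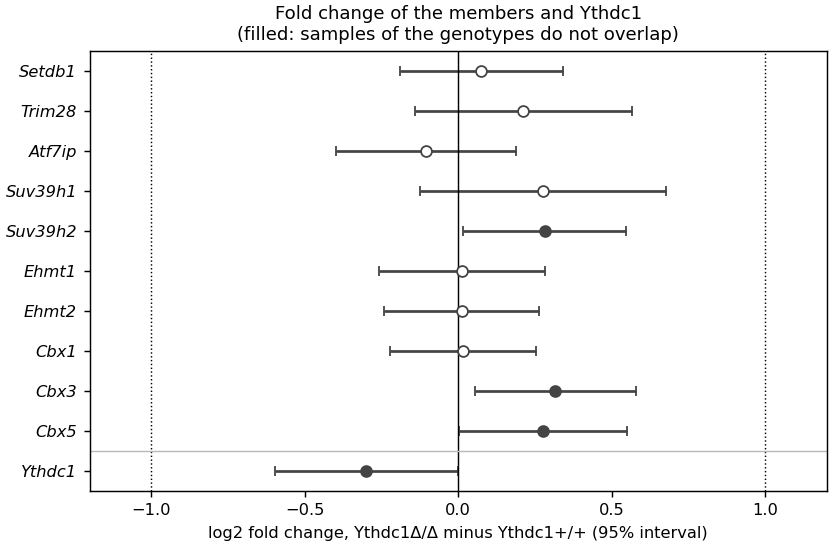
Log2 fold change of each of the 10 genes and of Ythdc1 on the x axis, Ythdc1Δ/Δ minus Ythdc1+/+ (edgeR quasi-likelihood fit, 3 against 3 samples), with its 95% interval as a bar. Filled points mark genes whose samples do not overlap between the genotypes, and dotted lines mark a 2-fold change, which none of the 10 intervals reaches.

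Of the series as a whole, library totals lay between 20809936 and 24563170 counts, summed samples between 42098649 and 48095239, and the 10 genes had 620 to 23370 counts per summed sample. *Ythdc1*, the targeted gene, had 56.8, 69.6 and 69.6 CPM (TMM-scaled counts per 1000000 counts) in KO176, KO177 and KO209, against 76.0, 72.6 and 92.5 CPM in WT178, WT180 and WT207, a log2 fold change of -0.30 ± 0.13 (SE, edgeR quasi-likelihood test, adjusted p = 0.521 by the Benjamini-Hochberg method). All 3 *Ythdc1Δ/Δ* samples lay below the *Ythdc1+/+* samples. These counts cover every exon of the gene, and which exons the deletion removes is not given in the sources used here. The study checked the knockout on the protein, by western blot in stem and progenitor (LSK) cells and by immunofluorescence in long-term HSCs. Of the HSC and progenitor markers, all 9 were tested, 0 passed the adjusted threshold and 0 had an unadjusted p under 0.05 (edgeR). *Kit* was at 161 to 260 CPM in *Ythdc1Δ/Δ* and 239 to 265 CPM in *Ythdc1+/+*. *Slamf1* (CD150) was at 5.92 to 8.46 CPM in *Ythdc1Δ/Δ* and 8.24 to 10.9 CPM in *Ythdc1+/+*, while *Flt3* and *Cd48*, whose proteins are absent from the long-term HSC gate of the study, were at 328 to 451 CPM and 242 to 389 CPM over the 6 samples. The labels name the cells only as HSCs.

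The other cell type markers are given here as summed CPM because the libraries are bulk samples, in which more cells of a type and more RNA per cell cannot be told apart. The 8 B lineage markers summed to 1460 to 2881 CPM in *Ythdc1Δ/Δ* and 708 to 857 CPM in *Ythdc1+/+*, mostly from *Ighm*. The 6 stromal and endothelial markers summed to 102 to 119 CPM in *Ythdc1Δ/Δ* and 78.3 to 95.2 CPM in *Ythdc1+/+*. Most of it came from *Pecam1* (79.1 to 102 CPM in *Ythdc1Δ/Δ* and 70.9 to 91.8 CPM in *Ythdc1+/+*). *Cdh5*, an endothelial marker of the list, was at most at 0.22 CPM in any sample and was not tested. Of the stromal genes, *Lepr*, *Adipoq* and *Cxcl12* differed far more. *Lepr* was 5.96-fold higher (73 to 87 counts in *Ythdc1Δ/Δ*, 6 to 20 in *Ythdc1+/+*), past the adjusted threshold. *Adipoq* was 8.95-fold higher (92 to 166 against 8 to 24 counts), also past it. *Cxcl12* was at 12.5 to 17.7 CPM in *Ythdc1Δ/Δ* and 2.22 to 5.76 CPM in *Ythdc1+/+* (log2 fold change 2.17 ± 0.34, adjusted p = 0.0858, edgeR quasi-likelihood test with Benjamini-Hochberg adjustment). The samples of *Col1a1* overlapped, at 0.352 to 1.21 CPM in *Ythdc1Δ/Δ* and 0.120 to 0.540 CPM in *Ythdc1+/+* (log2 fold change 0.93 ± 0.54, adjusted p = 0.625 in the same edgeR fit). The megakaryocyte markers summed to 147 to 262 CPM in *Ythdc1Δ/Δ* and 241 to 378 CPM in *Ythdc1+/+*, and the granulocyte markers to 21663, 13219 and 11626 CPM in KO176, KO177 and KO209 and 9885 to 12848 CPM in *Ythdc1+/+*. KO176 stood far above the other samples only in *Mpo* (10914 CPM, against 2064 to 5388 CPM), *Elane* (1404.5 against 414 to 558 CPM) and *Prtn3* (1027 against 353 to 594 CPM). In *Ngp*, *S100a8* and *S100a9* KO209 was higher than KO176, and in *Ltf* and *Camp* KO176 was the highest by a smaller margin. Of the set, KO176 was the highest sample in *Trim28*, *Suv39h1*, *Suv39h2* and *Ehmt2* and the lowest in *Atf7ip* and *Cbx1*. The erythroid markers were at 40.7 to 48.2 CPM in *Ythdc1Δ/Δ* and 36.2 to 47.5 CPM in *Ythdc1+/+* and the T cell markers at 2.74 to 3.78 CPM in *Ythdc1Δ/Δ* and 2.65 to 2.91 CPM in *Ythdc1+/+*, with *Cd3e* at most at 0.344 CPM and *Cd8a* at most at 0.198 CPM in any sample. The part of these cells in the values of the 10 genes was not tested.

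The promoters of the 3 genes with separated samples are shown for the letters that stand at their start sites. All 10 genes were matched by symbol in the RefSeq promoter table (GRCm38.p6), with 14 windows that each run from 250 bases before the start site to 50 bases after it. Capitals mark the letters TTTCCCGC or TTTGGCGC, which resemble binding sites of the cell cycle factors of the E2F family and were searched on both strands.
*Suv39h2* promoter, chr2:3474937-3475236, minus strand: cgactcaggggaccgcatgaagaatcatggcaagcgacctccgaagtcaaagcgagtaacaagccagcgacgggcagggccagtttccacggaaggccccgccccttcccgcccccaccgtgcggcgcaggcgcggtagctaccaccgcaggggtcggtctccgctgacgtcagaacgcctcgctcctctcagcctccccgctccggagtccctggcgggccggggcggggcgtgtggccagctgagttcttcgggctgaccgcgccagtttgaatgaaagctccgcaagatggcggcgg
*Cbx3* promoter, chr6:51470366-51470665, plus strand, the first of its 2 windows: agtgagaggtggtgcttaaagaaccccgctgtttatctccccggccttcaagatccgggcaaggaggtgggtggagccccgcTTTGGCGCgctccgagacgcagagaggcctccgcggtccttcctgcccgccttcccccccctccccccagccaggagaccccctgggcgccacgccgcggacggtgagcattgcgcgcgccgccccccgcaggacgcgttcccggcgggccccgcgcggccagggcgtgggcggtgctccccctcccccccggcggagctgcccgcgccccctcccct
*Cbx5* promoter, chr15:103239803-103240102, minus strand, the first of its 2 windows: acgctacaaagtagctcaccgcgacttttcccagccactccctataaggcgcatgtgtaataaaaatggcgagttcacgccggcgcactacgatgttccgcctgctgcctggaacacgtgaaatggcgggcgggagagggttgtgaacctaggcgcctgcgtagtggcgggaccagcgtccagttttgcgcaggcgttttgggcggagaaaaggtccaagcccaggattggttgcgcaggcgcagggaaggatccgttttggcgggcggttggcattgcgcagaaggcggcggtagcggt
Of the windows shown, only that of *Cbx3* held 1 of these strings, TTTGGCGC, which begins 168 bases before the start site. Either string was found in 1 of the 14 windows of the set, against 514 of 32851 windows in the whole table (1.56%) and 400 of 15065 windows of genes tested here (2.66%). The windows of the set were rich in CpG, with a median ratio of observed to expected CpG of 0.829 and a median GC content of 66.2%, against 0.713 and 59.7% for genes tested here. Only these 2 exact strings were searched, so a window without them may hold other letters that resemble E2F sites. A match is a description of the letters and not evidence of binding.

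The SETDB1 branch showed no separation between the genotypes. *Setdb1* (ENSMUSG00000015697.14, mm10 chr3:95323525-95357202, minus strand) had 28.0, 29.0 and 32.9 CPM in KO176, KO177 and KO209, against 26.5, 30.1 and 28.7 CPM in WT178, WT180 and WT207. The ranges overlapped, the log2 fold change was 0.075 ± 0.12 (SE), and the 95% interval of -0.19 to 0.34 spans a level 12.3% lower to 26.6% higher (edgeR quasi-likelihood test, Benjamini-Hochberg adjusted p = 0.875). The value was 0.0030 without KO209, 0.028 without WT178 and 0.13 without KO176. Of its exon bases, 4.73% are shared with genes on the other strand. *Atf7ip* (ENSMUSG00000030213.12, chr6:136506167-136610862, plus strand), which encodes the partner that protects SETDB1, had 63.9, 76.7 and 83.3 CPM in KO176, KO177 and KO209, against 88.0, 71.5 and 81.3 CPM in WT178, WT180 and WT207. KO176 was the lowest of its 6 samples and WT178 the highest, and the log2 fold change was -0.10 ± 0.13 (adjusted p = 0.84 in the same edgeR fit). It was 0.0023 without KO176, -0.032 without WT178, -0.19 without KO209 and -0.18 without WT180.

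*Trim28* (ENSMUSG00000005566.14, chr7:12999114-13031035, plus strand), the corepressor that recruits SETDB1, had 553, 440 and 361 CPM in KO176, KO177 and KO209, against 406, 368 and 395 CPM in WT178, WT180 and WT207. The *Ythdc1Δ/Δ* samples spread more widely than the *Ythdc1+/+* samples (451 ± 96.4 against 390 ± 19.5 CPM, mean ± SD, n = 3 each), with KO209 the lowest and KO176 the highest of the 6. The log2 fold change was 0.21 ± 0.16 (edgeR quasi-likelihood test, Benjamini-Hochberg adjusted p = 0.704). It was 0.046 without KO176 and 0.35 without KO209.

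The SUV39 enzymes had nearly the same fitted fold change with different spreads. *Suv39h1* (ENSMUSG00000039231.18, chrX:8061171-8074760, minus strand) had 153, 124 and 96.5 CPM in KO176, KO177 and KO209, against 123, 92.5 and 92.3 CPM in WT178, WT180 and WT207. The samples overlapped, since WT178 lay above KO209 and just under KO177. The log2 fold change was 0.28 ± 0.18 with a 95% interval of -0.12 to 0.68 (edgeR quasi-likelihood test, Benjamini-Hochberg adjusted p = 0.665), and it was 0.11 without KO176, 0.43 without KO209 and 0.43 without WT178. Of its exon bases, 14.6% are also exons of *Gm14820* on the other strand, and read pairs that touched the exons of 2 genes were counted for neither.

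*Suv39h2* (ENSMUSG00000026646.16, chr2:3455815-3475031, minus strand), the paralog best known from germ cells and embryos, had 18.4, 17.8 and 18.1 CPM in KO176, KO177 and KO209, against 14.9, 15.03 and 14.8 CPM in WT178, WT180 and WT207. Every *Ythdc1Δ/Δ* sample lay above every *Ythdc1+/+* sample, with the smallest spread of the set (18.1 ± 0.293 against 14.9 ± 0.107 CPM, mean ± SD, n = 3 each). At the level of single libraries it was the only one of the 10 genes whose genotypes did not overlap, with a lowest, median and highest library of 16.5, 18.3 and 19.2 CPM in *Ythdc1Δ/Δ* and 14.4, 14.9 and 15.5 CPM in *Ythdc1+/+*. How many of all genes tested were separated by single libraries is not given here, and libraries of the same title may not be independent. The log2 fold change was 0.28 ± 0.12, with a 95% interval of 0.017 to 0.55 (edgeR quasi-likelihood test, unadjusted p = 0.0393, Benjamini-Hochberg adjusted p = 0.492). It rests on 778 to 898 counts per *Ythdc1Δ/Δ* sample and 620 to 724 counts per *Ythdc1+/+* sample. At such counts the spread between samples was smaller than counting noise alone would give, so it is no measure of precision. The SE of the fit, 0.119, equalled that of *Setdb1*. *Dclre1c*, a gene on the other strand that shares 8.10% of its exon bases, had 523 to 603 counts in *Ythdc1Δ/Δ* and 585 to 651 counts in *Ythdc1+/+*.

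*Ehmt1* and *Ehmt2*, which encode the partners in the GLP and G9a heterodimer, were at nearly equal levels in the genotypes. *Ehmt1* (ENSMUSG00000036893.17, chr2:24789928-24919614, minus strand) had 62.6, 66.6 and 76.7 CPM in KO176, KO177 and KO209, against 60.8, 71.8 and 71.5 CPM in WT178, WT180 and WT207. *Ehmt2* (ENSMUSG00000013787.15, chr17:34898469-34914052, plus strand) had 67.2, 62.5 and 55.4 CPM in KO176, KO177 and KO209, against 59.6, 58.6 and 65.3 CPM in WT178, WT180 and WT207. The samples of the genotypes were interleaved in both genes. The log2 fold changes were 0.013 ± 0.12 for *Ehmt1*, with a 95% interval of -0.26 to 0.28, and 0.012 ± 0.11 for *Ehmt2*, with a 95% interval of -0.24 to 0.26 (adjusted p = 0.984 for both, edgeR quasi-likelihood test with Benjamini-Hochberg adjustment). The sign of the *Ehmt2* value turned under upper quartile scaling, and that of either gene turned with some samples left out.

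The HP1 genes had different fitted values, with that of *Cbx1* near 0. *Cbx1* (ENSMUSG00000018666.13, chr11:96789127-96808640, plus strand), which encodes HP1β, had 141, 159 and 153 CPM in KO176, KO177 and KO209, against 147, 145 and 155 CPM in WT178, WT180 and WT207. The ranges overlapped, and the log2 fold change was 0.017 ± 0.11 with a 95% interval of -0.22 to 0.25 (edgeR quasi-likelihood test, Benjamini-Hochberg adjusted p = 0.974).

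*Cbx3* (ENSMUSG00000029836.15, chr6:51470360-51483704, plus strand), which encodes HP1γ, had 92.7, 93.8 and 98.7 CPM in KO176, KO177 and KO209, against 86.0, 75.3 and 67.6 CPM in WT178, WT180 and WT207. All *Ythdc1Δ/Δ* samples were above all *Ythdc1+/+* samples, and the log2 fold change of 0.32 ± 0.12 was the highest of the 10 genes, with a 95% interval of 0.055 to 0.58 (edgeR quasi-likelihood test, unadjusted p = 0.0223, Benjamini-Hochberg adjusted p = 0.425). Single libraries overlapped, at 81.7, 94.0 and 105 CPM (lowest, median and highest) in *Ythdc1Δ/Δ* and 62.1, 75.8 and 94.2 CPM in *Ythdc1+/+*. With the 12 libraries entered as separate samples and the library digit as a block, *Cbx3* passed the threshold (adjusted p = 0.0382, edgeR quasi-likelihood test). That fit treats libraries of the same number as independent, and it called 717 of the 15551 genes it tested, against 25 of 18234 in the main fit. The table also holds 8 processed copies of *Cbx3*, *Cbx3-ps1* to *Cbx3-ps8*, which together had 60 to 71 counts in *Ythdc1Δ/Δ* and 43 to 61 counts in *Ythdc1+/+*, against 3916 to 4885 and 3167 to 3630 counts of *Cbx3*, and read pairs that mapped to several places were not counted.

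*Cbx5* (ENSMUSG00000009575.14, chr15:103191544-103239816, minus strand), which encodes HP1α, had 119, 113 and 144 CPM in KO176, KO177 and KO209, against 100.4, 99.7 and 110 CPM in WT178, WT180 and WT207. KO209 was the highest of the 6 samples, and KO177, the lowest of the *Ythdc1Δ/Δ* samples, lay just above WT207. The log2 fold change was 0.28 ± 0.12 with a 95% interval of 0.0033 to 0.55 (edgeR quasi-likelihood test, unadjusted p = 0.0478, Benjamini-Hochberg adjusted p = 0.519), and it was 0.17 without KO209.

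**Figure D2:**
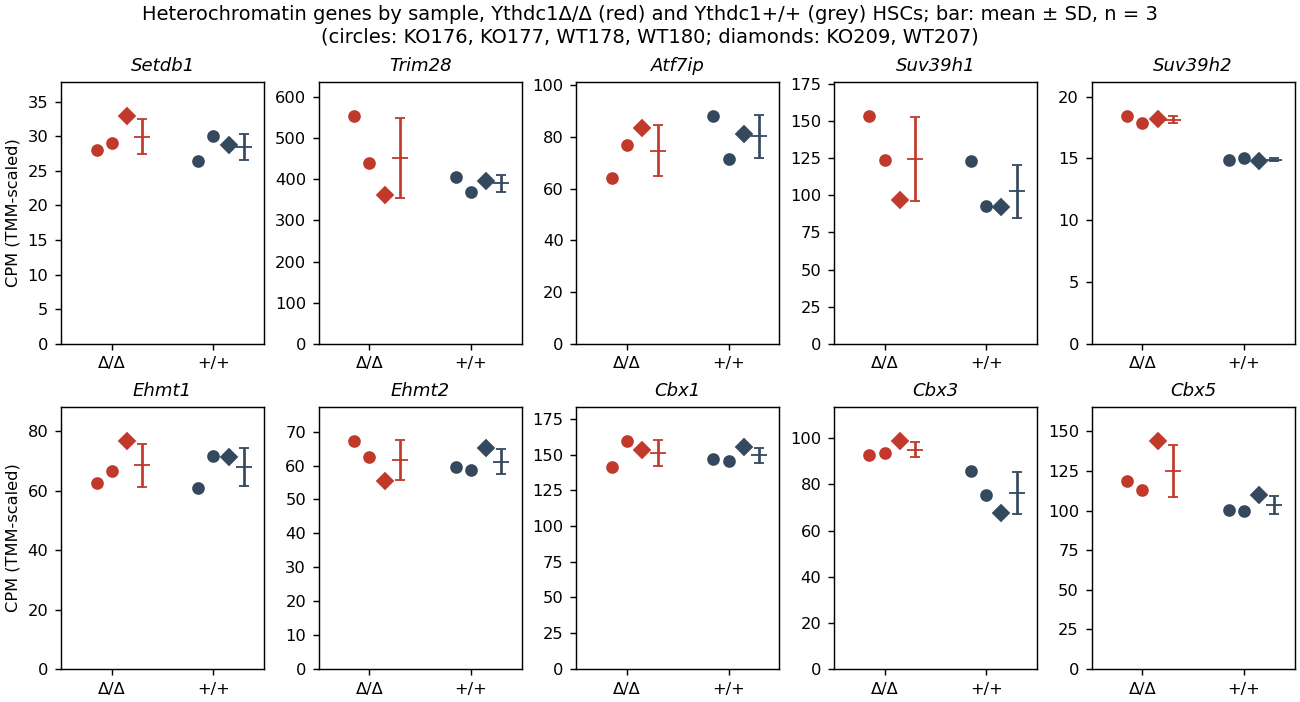
TMM-scaled CPM of each of the 10 genes (y axis, a scale of its own per gene that starts at 0) in the 3 Ythdc1Δ/Δ and 3 Ythdc1+/+ samples, with mean and SD beside the points. Circles are KO176, KO177, WT178 and WT180 and diamonds KO209 and WT207. In Suv39h2, Cbx3 and Cbx5 all Ythdc1Δ/Δ points lie above the Ythdc1+/+ points, and in the other 7 genes they overlap.

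As a group, the 10 genes had a median log2 fold change of 0.14, against -0.01 over all genes tested. The fitted value was positive in 9 of 10 genes, against 48.9% of all genes tested. It was positive in 8 of 10 under upper quartile scaling, and in 7 of 10 without KO177, without WT178 or without WT180. Without KO176 the median was 0.094. The count of genes with an unadjusted p under 0.05 was 0 without WT180 and 0 without WT207, in place of 3. No test was made of the group.

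The title numbers form a lower range (KO176, KO177, WT178 and WT180) and an upper range (KO209 and WT207), and both hold samples of each genotype. Within the lower range (2 against 2 samples) and within the upper range (1 against 1 sample) the difference had the same sign in *Setdb1*, *Suv39h1*, *Suv39h2*, *Cbx3* and *Cbx5* and opposite signs in the other 5 genes. *Suv39h2* differed by 0.28 and 0.29 on the log2 CPM scale in the lower and the upper range, *Cbx3* by 0.21 and 0.55, and *Cbx5* by 0.21 and 0.39. For *Suv39h2*, *Cbx3* and *Cbx5* the positive sign in both ranges was fixed beforehand, since all *Ythdc1Δ/Δ* samples lay above all *Ythdc1+/+* samples. *Trim28* differed by 0.35 in the lower range and -0.13 in the upper range, and *Ehmt2* by 0.13 and -0.24. In a fit with a term for the range, the smallest adjusted p of the set was that of *Cbx3* (0.214, edgeR quasi-likelihood test with Benjamini-Hochberg adjustment). What the range stands for is not stated in the labels.

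**Figure D3:**
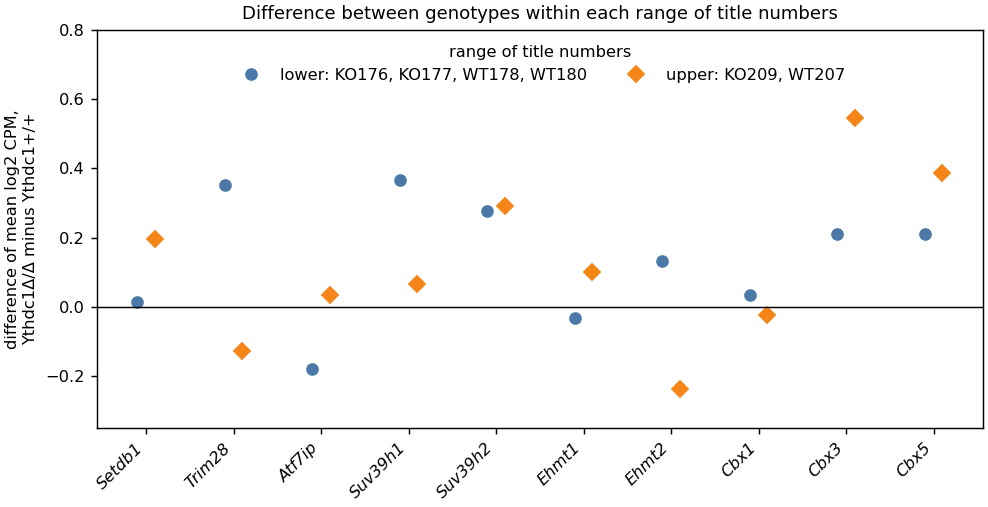
Difference of mean log2 CPM between Ythdc1Δ/Δ and Ythdc1+/+ samples (y axis) for each of the 10 genes, within the lower range of title numbers (circles, KO176 and KO177 against WT178 and WT180) and within the upper range (diamonds, KO209 against WT207, with no replicate). Suv39h2, Cbx3 and Cbx5 lie above 0 in both ranges, which follows from the full separation of their samples. Trim28 and Ehmt2 lie on either side of 0.

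Levels of different genes were compared as CPM per kb of exon, in which the annotated exon length counts in full whether or not a cell uses it. In *Ythdc1+/+* HSCs the order was *Trim28*, *Cbx1*, *Suv39h1*, *Cbx3*, *Cbx5*, *Ehmt2*, *Ehmt1*, *Setdb1*, *Atf7ip* and *Suv39h2*. *Trim28* was at 109 ± 23.2 CPM per kb in *Ythdc1Δ/Δ* and 93.7 ± 4.69 in *Ythdc1+/+* (SD, n = 3 each), and *Suv39h2* at 4.11 ± 0.0665 in *Ythdc1Δ/Δ* and 3.38 ± 0.0243 in *Ythdc1+/+*. The top and the bottom of this order were 27.7-fold apart in *Ythdc1+/+*, and even *Suv39h2* stood above the median of all genes tested, 2.76 CPM per kb in *Ythdc1+/+*. Between neighbours, the *Ythdc1+/+* samples overlapped for *Cbx3* and *Cbx5*, for *Cbx5* and *Ehmt2*, and for *Setdb1* and *Atf7ip*, and the other neighbours were apart in these samples. In *Ythdc1Δ/Δ* HSCs the order was the same apart from the last places, where *Suv39h2* (4.04 to 4.17 CPM per kb) stood just above *Atf7ip* (3.08 to 4.02) and overlapped *Setdb1* (4.08 to 4.80). *Atf7ip* has 20726 annotated exon bases, the most of the set, which lowers its value per kb.

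Within each sample, the makeup of the HP1 transcripts was compared per kb. *Cbx1* made up 53.5%, 57.0% and 52.5% of the summed *Cbx1*, *Cbx3* and *Cbx5* level in KO176, KO177 and KO209, against 57.5%, 59.0% and 60.8% in WT178, WT180 and WT207. The samples of the genotypes did not overlap, though KO177 and WT178 were close. The means were 54.3% ± 2.34 in *Ythdc1Δ/Δ* and 59.1% ± 1.66 in *Ythdc1+/+* (SD), a difference of -4.77 percentage points. The exact 2-sided permutation test over the 6 samples gave p = 0.1, the smallest it can give, and 0.6 after adjustment over 6 such measures. The share of *Cbx3* was 24.4% ± 0.612 in *Ythdc1Δ/Δ* and 21.5% ± 2.56 in *Ythdc1+/+* (p = 0.2, exact permutation test), and that of *Cbx5* was 21.3% ± 2.13 in *Ythdc1Δ/Δ* and 19.4% ± 0.906 in *Ythdc1+/+* (p = 0.3, exact permutation test). The difference was 1.51 percentage points without WT207 for *Cbx3*, in place of 2.84, and 0.881 without KO209 and 3.01 without KO177 for *Cbx5*, in place of 1.92. The 3 genes together stood at 61.7, 65.5 and 68.3 CPM per kb in KO176, KO177 and KO209 and at 60.0, 57.7 and 59.9 CPM per kb in WT178, WT180 and WT207. The log2 ratio of *Suv39h2* to *Suv39h1* per kb was -2.50 ± 0.32 in *Ythdc1Δ/Δ* and -2.51 ± 0.24 in *Ythdc1+/+*, so that *Suv39h1* was the more abundant paralog in all 6 samples. The log2 ratio of *Ehmt2* to *Ehmt1* was 0.41 ± 0.29 in *Ythdc1Δ/Δ* and 0.41 ± 0.13 in *Ythdc1+/+*, and that of *Setdb1* to *Trim28* was -4.62 ± 0.42 in *Ythdc1Δ/Δ* and -4.50 ± 0.16 in *Ythdc1+/+*. Exact permutation tests of these 3 ratios gave p = 0.8 for *Setdb1* to *Trim28* and 1 for the other two.

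**Figure D4:**
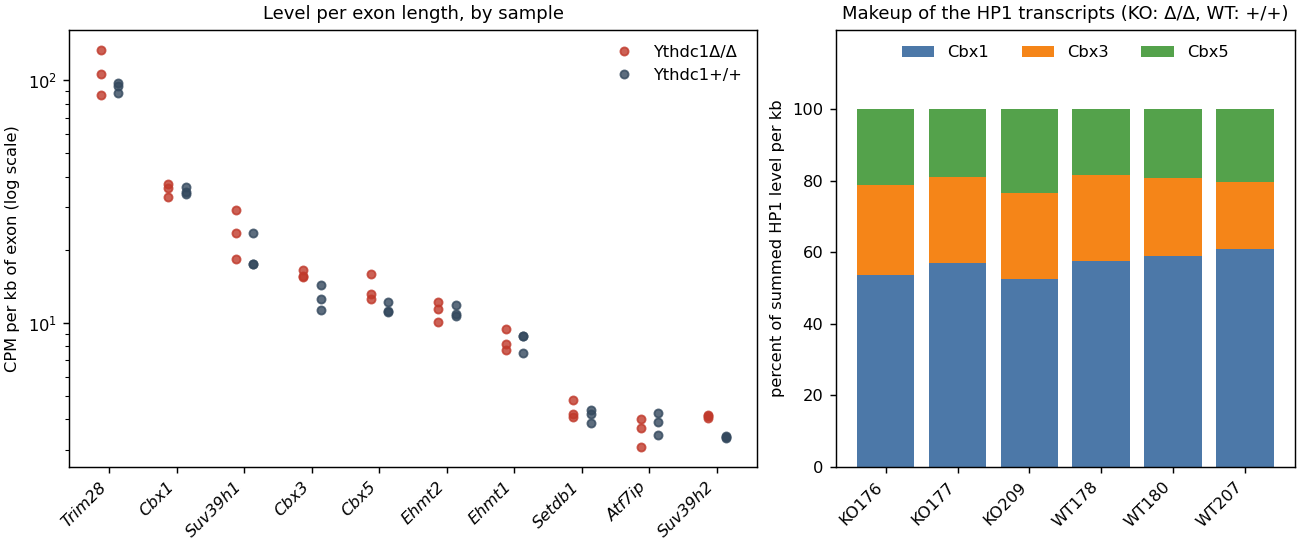
Left, CPM per kb of exon (log axis) of the 10 genes in order of their Ythdc1+/+ level, with 1 point per sample, Ythdc1Δ/Δ at the left of each pair. Right, percent of the summed HP1 level per kb taken by Cbx1, Cbx3 and Cbx5 in each sample (KO, Ythdc1Δ/Δ; WT, Ythdc1+/+); Cbx1 takes 52.5% to 57.0% in Ythdc1Δ/Δ and 57.5% to 60.8% in Ythdc1+/+.

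The HUSH complex, which spreads H3K9 trimethylation together with SETDB1 and MORC2A, had 5 members tested, 2 with a positive and 3 with a negative fold change, 1 with an unadjusted p under 0.05 and 0 past the adjusted threshold. Such a p was found with a higher level in 4.28% and with a lower level in 5.2% of all genes tested. *Pphln1*, which encodes the subunit periphilin, had 70.2, 60.8 and 68.6 CPM in KO176, KO177 and KO209, against 55.1, 57.0 and 52.0 CPM in WT178, WT180 and WT207. Its samples did not overlap, with a log2 fold change of 0.28 ± 0.11 (edgeR quasi-likelihood test, Benjamini-Hochberg adjusted p = 0.435). *Morc2a* (0.23), *Fam208b* (-0.25) and *Mphosph8* (-0.05), the chromodomain subunit, had overlapping samples.

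Other partners of SETDB1, TRIM28 and G9a/GLP numbered 15, all tested, with 0 past the adjusted threshold, 0 with an unadjusted p under 0.05 (over all genes tested 4.28% higher and 5.2% lower) and a median log2 fold change of 0.04. The 4 with the smallest p-values were *Zfp809* (-0.28), a zinc finger protein that leads TRIM28 to retroviral primer binding sites, *Sumo2* (-0.36), *Morc3* (0.15) and *Cdyl* (0.12). The lowest adjusted p among them was 0.607, that of *Zfp809* (edgeR quasi-likelihood test with Benjamini-Hochberg adjustment).

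H3K9 demethylases, which remove the mark, numbered 11, with a negative fold change in 8, a median of -0.15 and 0 past the adjusted threshold. *Kdm4d* was at 5, 8 and 7 counts in KO176, KO177 and KO209 and at 10, 19 and 13 counts in WT178, WT180 and WT207, so that its samples did not overlap at a very low level, with a log2 fold change of -1.06 ± 0.42 (unadjusted p = 0.0304, adjusted p = 0.46 in the same edgeR fit). It was the only one of the 11 with an unadjusted p under 0.05. With a lower level, 5.2% of all genes tested had such a p, and 8.59% had separated samples. *Kdm4b* (-0.23), *Kdm4a* (-0.30) and *Kdm7a* (-0.23) followed by p. *Kdm3b*, whose protein the study lists among the partners of YTHDC1, was at 21.5 ± 2.06 CPM in *Ythdc1Δ/Δ* and 21.8 ± 2.57 CPM in *Ythdc1+/+* (SD, n = 3 each), a log2 fold change of -0.016 ± 0.14.

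Of 17 genes of HP1 partners and heterochromatin maintenance, 16 were tested, 12 with a positive fold change, and 0 passed the adjusted threshold. An unadjusted p under 0.05 was reached by 5 of them, all with a higher level in *Ythdc1Δ/Δ*, and 3 of these had separated samples. Among all genes tested, 4.28% reached such a p with a higher level, and 7.75% had separated samples with a higher level. *Uhrf1*, which binds H3K9 methylation and keeps DNA methylation through replication, had 397, 341 and 334 CPM in KO176, KO177 and KO209, against 267, 269 and 265 CPM in WT178, WT180 and WT207. This was a log2 fold change of 0.42 ± 0.12 (edgeR quasi-likelihood test, Benjamini-Hochberg adjusted p = 0.289). *Hells*, a chromatin remodeller of pericentromeric repeats, had a log2 fold change of 0.32 ± 0.11, *Lbr*, the inner nuclear membrane receptor that binds HP1, one of 0.37 ± 0.13, and *Incenp*, a subunit of the chromosomal passenger complex, one of 0.33 ± 0.14. *Hp1bp3*, which the study names as a partner of YTHDC1, was at 273 ± 22.2 CPM in *Ythdc1Δ/Δ* and 269 ± 18.98 CPM in *Ythdc1+/+* (SD, n = 3 each), a log2 fold change of 0.022 ± 0.12 with a 95% interval of -0.24 to 0.29.

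Genes of cell division, whose level follows the share of dividing cells, had higher fitted values too. Of 26 such genes, 25 had a positive fold change (the exception was *Cenpf*), 17 had all *Ythdc1Δ/Δ* samples above all *Ythdc1+/+* samples, 14 had an unadjusted p under 0.05 and 0 passed the adjusted threshold. The shares over all genes tested were 48.9% with a positive fold change, 7.75% with separated higher samples and 4.28% with such a p and a higher level. Their median log2 fold change was 0.28, and their summed level was 3875, 3518 and 3477 CPM in KO176, KO177 and KO209, against 2919, 3084 and 2802 CPM in WT178, WT180 and WT207. The kinase gene *Ttk* had the smallest p, with 48.9, 42.2 and 43.7 CPM in KO176, KO177 and KO209, against 30.8, 31.7 and 33.3 CPM in WT178, WT180 and WT207 (log2 fold change 0.49 ± 0.11, edgeR quasi-likelihood test, Benjamini-Hochberg adjusted p = 0.194). *Bub1b* (0.45), *Ccna2* (0.46) and *Kif11* (0.42) came next. The part of cell division in the levels of *Suv39h2*, *Cbx3* and *Cbx5* was not tested.

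**Figure D5:**
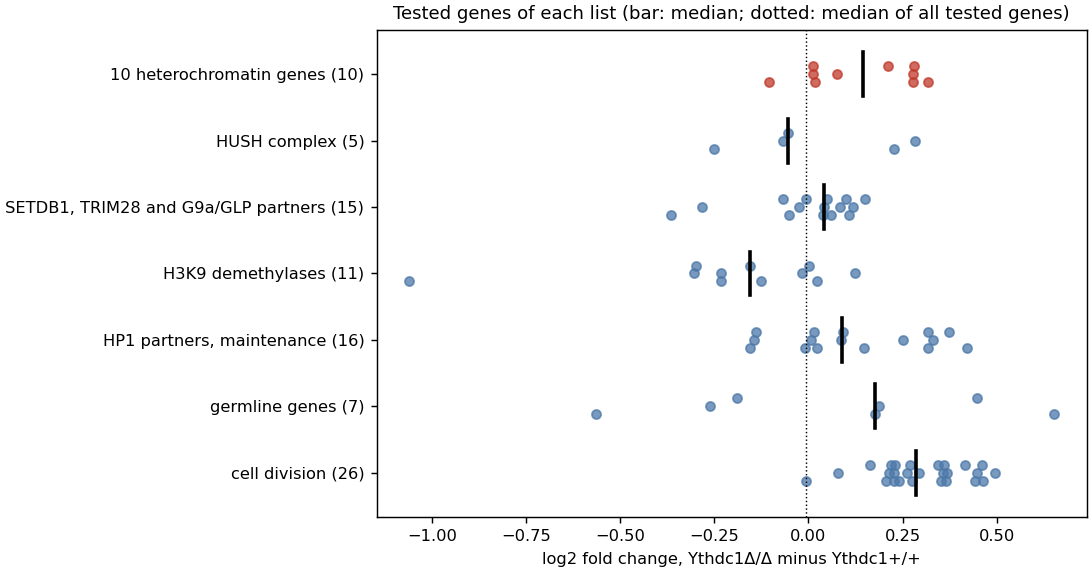
Log2 fold change, Ythdc1Δ/Δ minus Ythdc1+/+ (x axis), of each tested gene in the set of 10 and in 6 other lists, with the number of tested genes in parentheses, the median as a bar and the median of all tested genes as a dotted line. The medians are 0.14 in the set of 10, -0.15 in the H3K9 demethylases and 0.28 in cell division.

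A list of 2-cell stage genes and one of germline genes were drawn up as genes that H3K9 methylation may help to keep silent in other cells. These genes had 0 to 239 counts per sample here. Whether H3K9 methylation silences each of them in HSCs was not tested. Of 19 genes of the 2-cell stage, which are multicopy families whose reads are hard to place, only *Duxf3* passed the filter. *Duxf3* had 14, 22 and 29 counts in KO176, KO177 and KO209 and 30, 26 and 33 counts in WT178, WT180 and WT207, and each of the other 18 had at most 14 counts in any sample. Of 18 germline genes, 11 had at most 11 counts in any sample and 7 were tested, 4 with a positive and 3 with a negative fold change, 1 with an unadjusted p under 0.05 and 0 past the adjusted threshold. The share of all genes tested with such a p was 4.28% with a higher level and 5.2% with a lower level. *Stag3*, a meiotic cohesin subunit, had 3.50, 4.24 and 4.81 CPM in KO176, KO177 and KO209, against 2.28, 3.26 and 2.43 CPM in WT178, WT180 and WT207. Its samples did not overlap, with a log2 fold change of 0.65 ± 0.22 (edgeR quasi-likelihood test, unadjusted p = 0.0127, Benjamini-Hochberg adjusted p = 0.365). *Ddx4* had 134, 239 and 219 counts in KO176, KO177 and KO209 and 142, 156 and 222 counts in WT178, WT180 and WT207. *Ddx4*, *Dazl* and *Tex101*, also expressed in germ cells, had overlapping samples with log2 fold changes of 0.18, 0.45 and -0.57.

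*Fbp1*, a gluconeogenic enzyme gene that SETDB1 keeps low in mouse blood progenitors, had 31.5, 34.0 and 36.6 CPM in KO176, KO177 and KO209, against 37.2, 42.0 and 36.7 CPM in WT178, WT180 and WT207. The 3 *Ythdc1Δ/Δ* samples lay below the *Ythdc1+/+* samples, KO209 by a small margin, and the log2 fold change was -0.18 ± 0.12 (edgeR quasi-likelihood test, Benjamini-Hochberg adjusted p = 0.656). *Fbp2* had at most 6 counts in any sample. *Fv1*, a restriction factor derived from a retroviral gag gene, had a log2 fold change of -0.05 ± 0.18, and *Syna*, *Synb*, *Peg10* and *Rtl1*, which also derive from retroviruses or retrotransposons, had at most 6 counts in any sample. Reads from the repeats themselves are not in a table of genes, so the activity of endogenous retroviruses was not analysed here.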

How the data were processed

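Gene-level counts, deposited by the authors as raw whole numbers for 12 libraries, were made per the file headers with featureCounts 2.0.1 in paired mode on the exons of GENCODE vM23 genes (mm10), without strand and without options that count multi-mapping or ambiguous pairs. The methods of the study also name Hisat2, Stringtie and FPKM values, which were not used here. All sample columns matched the library titles. Counts of the 2 libraries of a title were added up. Genes were tested with edgeR 4.0.16 in R 4.3.3 (quasi-likelihood, robust, TMM scaling, filterByExpr at 10 counts and a total of at least 15), with Benjamini-Hochberg adjustment of p over 18234 genes. Standard errors and 95% intervals come from the F statistic. limma 3.58.1, DESeq2 1.42.0, other scalings, filters, a block for the library digit, a term for the title number range and leaving out each sample served as alternatives, and the lower range of title numbers alone (KO176, KO177, WT178 and WT180) was added after the data were seen. Steps were tested on simulated data. The 10 genes, the other lists and the naming rule (the 10 genes, *Ythdc1*, *Hp1bp3*, *Kdm3b* and up to 4 genes of each list with the smallest p) were chosen with earlier results of these data known. *Emv2* and *Mela* of the retroviral list were not matched by symbol. Protein sequences were not used here.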

Additional observations from a re-analysis of the deposited data

How the results depend on the processing

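Of 17 alternatives to the edgeR fit, 16 gave 0 of the 10 genes past the adjusted threshold, as did the rule of an unadjusted p of 0.05 or less with a 2-fold change or more. The exception was the fit of 12 libraries with the library digit as replicate block, which gave 1 gene, *Cbx3* (log2 fold change 0.32, adjusted p = 0.0382, edgeR quasi-likelihood test). That fit called 717 of the 15551 genes it tested, far more than the 25 of the main fit. Over all alternatives the adjusted p of *Cbx3* ranged from 0.0382 to 0.87. The median log2 fold change of the 10 genes was 0.094 to 0.16 with 1 sample left out, lowest without KO176. Of 170 values of single genes under an alternative, 158 kept their sign and their side of the threshold and 11 changed sign. These were *Ehmt2* under upper quartile scaling (-0.0028) and with samples left out (-0.048 to 0.084), *Ehmt1* in KO176, KO177, WT178 and WT180 alone (-0.043, chosen after the data were seen) and with samples left out (-0.074 to 0.081), *Cbx1* with samples left out (-0.024 to 0.070) and *Atf7ip* without KO176 (0.0023, with the other samples left out -0.19 to -0.032). Differences in the shares, the ratios and the HP1 sum moved by less than 1 SD, pooled over both genotypes, in all 42 cases. Some moved by more than the SD of 1 genotype alone. The differences of the 3 ratios changed sign with 1 sample left out, running from -0.15 to 0.17 for *Suv39h2* to *Suv39h1*, from -0.13 to 0.16 for *Ehmt2* to *Ehmt1* and from -0.34 to 0.086 for *Setdb1* to *Trim28*. Over all genes, the count past the threshold was 25, against 16 with upper quartile scaling, 15 with the legacy option of edgeR, 73 without a filter, 3 with a stricter filter, 85 with the range term, 131 with voomLmFit, 221 with DESeq2, 751 with separate libraries, 717 with the digit block and 1 to 81 with 1 sample left out. The replicate numbers of the genotypes differ, so no pairing of samples was possible. With 3 samples a genotype, the intervals of the 10 genes leave room for changes of up to 1.6-fold.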
